A study of Mus musculus with 6 samples.

Results

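The stage dependence of the Kap1 (Trim28) knockdown effect was measured in C2C12 cells as a difference of differences in log2 CPM (read counts scaled to the size of the library), here called the stage difference: the knockdown effect at 48 h of differentiation minus the knockdown effect during proliferation. It is negative where the knockdown lowered a gene more, or raised it less, in differentiating than in proliferating cells. C2C12 is an established mouse myoblast line of C3H origin. Control cells carried a lentiviral vector (LV) with a hairpin against luciferase (sh-Luc), and knockdown cells an LV with a hairpin against Kap1 (sh-Kap1), so all 6 libraries came from transduced cells. Proliferating myoblasts (MB) were kept in DMEM with 10% fetal calf serum and gave 2 libraries in each arm. Differentiating cells (MT) were moved to 2% horse serum with insulin, transferrin and selenium for 48 h and gave 1 library in each arm. Cytoplasmic polyA RNA was sequenced. The stage difference was taken in the 4 libraries whose files carry the mark "old" (both MT libraries and MB replicate 1), and the MB pair of replicate 2, whose files lack the mark, served as a check. Neither the meaning of that mark nor whether libraries came from separate cultures is stated in the labels. The p-values below therefore measure only the spread between the MB samples, with information shared across genes. They hold no spread between MT samples, since each MT arm gave 1 library. Of 37991 genes, 16472 had enough counts to be tested.

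KAP1 is a scaffold protein that KRAB zinc finger proteins bring to DNA, where it binds heterochromatin factors and silences genes and transposable elements. In myoblasts it is known to sit with the myogenic factor MyoD at muscle genes, together with activating and repressing cofactors. When C2C12 cells lose serum they leave the cell cycle, switch on myogenin, fuse and build sarcomeres, so a knockdown can act on other genes before and after that switch.

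Promoters of genes from 4 groups described below are shown first, each with a motif that its gene group is known for. They are RefSeq sequences of the mouse build GRCm38.p6, matched by symbol, from 250 bases before to 50 after the annotated start, and coordinates are of that build, which is not the mm9 build of the counts. In the promoters of sarcomere genes the capitals mark the E-box form CAGCTG, a sequence that MyoD and myogenin bind. Acta1 encodes skeletal actin and lies on the minus strand at chr8:123894726-123895025. Mylpf encodes a fast myosin light chain and lies on the plus strand at chr7:127211358-127211657.
Acta1: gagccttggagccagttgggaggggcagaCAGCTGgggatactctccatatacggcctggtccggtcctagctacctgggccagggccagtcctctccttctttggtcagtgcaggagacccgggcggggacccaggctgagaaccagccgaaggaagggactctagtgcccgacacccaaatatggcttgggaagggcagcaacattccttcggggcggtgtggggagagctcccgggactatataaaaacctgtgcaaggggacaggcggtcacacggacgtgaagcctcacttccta
Mylpf: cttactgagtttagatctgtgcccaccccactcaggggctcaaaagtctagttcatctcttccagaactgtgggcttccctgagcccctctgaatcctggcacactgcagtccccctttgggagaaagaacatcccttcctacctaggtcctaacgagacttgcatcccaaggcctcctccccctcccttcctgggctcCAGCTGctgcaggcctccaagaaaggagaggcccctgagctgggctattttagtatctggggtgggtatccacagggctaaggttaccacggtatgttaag

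In the promoters of sterol synthesis genes the capitals mark CCAAT, the box bound by NF-Y, or its reverse complement ATTGG. Msmo1, a sterol demethylation enzyme, lies on the minus strand at chr8:64733529-64733828. Idi1, the isopentenyl diphosphate isomerase, lies on the plus strand at chr13:8885356-8885655.
Msmo1: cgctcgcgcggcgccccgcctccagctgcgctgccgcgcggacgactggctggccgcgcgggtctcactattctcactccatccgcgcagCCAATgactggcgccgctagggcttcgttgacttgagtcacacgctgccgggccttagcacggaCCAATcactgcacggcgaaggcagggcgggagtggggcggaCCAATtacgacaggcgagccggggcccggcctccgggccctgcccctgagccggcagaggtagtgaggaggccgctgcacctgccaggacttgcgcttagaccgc
Idi1: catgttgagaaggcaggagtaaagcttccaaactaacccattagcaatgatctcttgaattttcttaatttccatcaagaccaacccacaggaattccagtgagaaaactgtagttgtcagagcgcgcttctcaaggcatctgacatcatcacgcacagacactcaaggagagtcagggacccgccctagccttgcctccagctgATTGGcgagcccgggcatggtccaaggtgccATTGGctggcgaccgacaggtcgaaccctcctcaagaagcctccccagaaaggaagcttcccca

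In the promoters of mitosis genes the capitals mark CCAAT and TTTGAA, the core of the cell cycle homology region of late cell cycle genes, on either strand. Ccnb2, which encodes cyclin B2, lies on the minus strand at chr9:70421505-70421804. Cdc20, an activator of the anaphase-promoting complex, lies on the minus strand at chr4:118437294-118437593.
Ccnb2: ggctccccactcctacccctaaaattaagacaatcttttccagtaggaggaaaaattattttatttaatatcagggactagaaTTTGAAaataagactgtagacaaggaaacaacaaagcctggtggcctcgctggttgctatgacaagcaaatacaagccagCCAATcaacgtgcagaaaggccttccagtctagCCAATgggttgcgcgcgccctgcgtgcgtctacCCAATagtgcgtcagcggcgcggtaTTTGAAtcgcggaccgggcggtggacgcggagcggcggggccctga
Cdc20: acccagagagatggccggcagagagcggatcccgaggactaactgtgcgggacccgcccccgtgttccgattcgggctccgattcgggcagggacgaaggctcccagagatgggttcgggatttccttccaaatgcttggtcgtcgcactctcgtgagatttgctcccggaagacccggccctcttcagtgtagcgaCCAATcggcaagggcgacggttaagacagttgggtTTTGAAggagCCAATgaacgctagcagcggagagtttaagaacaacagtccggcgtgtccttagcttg

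In the promoter of an interferon response gene the capitals mark GAAANNGAA, the core of the interferon-stimulated response element, on either strand. Igtp, an interferon-induced GTPase, lies on the plus strand at chr11:58199306-58199605.
Igtp: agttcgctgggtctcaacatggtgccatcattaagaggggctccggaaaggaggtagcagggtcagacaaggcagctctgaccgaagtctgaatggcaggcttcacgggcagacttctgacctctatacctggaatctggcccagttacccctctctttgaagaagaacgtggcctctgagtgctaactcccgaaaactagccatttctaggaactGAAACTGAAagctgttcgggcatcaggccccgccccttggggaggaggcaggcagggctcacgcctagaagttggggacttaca

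Each motif was searched on both strands, and a match is a description of these letters, not of a bound site. CAGCTG, which is one form of the wider E-box CANNTG, stood in 40.8% of the 49 sarcomere promoters (40 of 54 genes matched by symbol) and in 16.3% of all 32851 promoters. CANNTG itself stood in 81.6% of the sarcomere promoters and in 72.3% of all. TTTGAA stood in 71.7% of the 60 mitosis promoters, in 10.6% of the 47 DNA replication promoters and in 17.9% of all. CCAAT stood in 76.0% of the 25 sterol promoters, 73.3% of the mitosis promoters, 57.4% of the DNA replication promoters and 37.4% of all. GAAANNGAA stood in 54.5% of the 55 interferon response promoters and in 8.56% of all. One form of the MEF2 site, CTAAAAATA, stood in 2 of the 49 sarcomere promoters and in 0.517% of all, and one form of the sterol response element, TCACNCCAC, in 0 of the 25 sterol promoters and 1.24% of all. A promoter was listed for 20 of 30 sterol, 47 of 61 interferon response, 55 of 64 mitosis and 41 of 50 DNA replication genes. Under 80% of the sarcomere, sterol and interferon response genes were matched, so as a check of those whole lists the shares are void and describe the matched genes only.

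The targeted gene was lower in the knockdown at both stages. Trim28 stood at 596 and 428 CPM in the MB controls and 150.2 and 102 in the MB knockdowns, and at 393 in the MT control and 114 in the MT knockdown. Every knockdown library lay below every control library. The knockdown effect was -1.99 and -2.07 in MB and -1.78 in MT on the log2 scale, and the stage difference was 0.21 with the replicate 1 pair and 0.29 with the replicate 2 pair (adjusted p = 0.408, edgeR with the replicate block described below). The MT knockdown kept 0.291 of the control level and the MB knockdowns 0.252 and 0.239.

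The libraries held between 36247530 and 49839994 counts in genes, so 3 counts stood for 0.0619 to 0.0775 CPM. Myoblast genes were present in all 6 libraries: Cdh15, M-cadherin, lay at 48.7 and 157 CPM in the MB controls and 25.7 and 160.3 in the MB knockdowns, and at 271 in the MT control and 128 in the MT knockdown, and Des, desmin, at 355 and 657 CPM in the MB controls and 303 and 750.5 in the MB knockdowns, and at 1244 in the MT control and 517 in the MT knockdown. The MB pairs were not in the same state. Myog, myogenin, stood at 1.28 CPM in the MB control of replicate 1 and at 33.8 in that of replicate 2, and Cxcl5, a chemokine, at 377 and 6.61. In bulk RNA, fewer cells of a kind and less RNA per cell cannot be told apart, which holds for every gene group below.

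The knockdown effect was wider in MT than in MB. Its SD over the 16472 genes was 0.971 on the log2 scale in MT, against 0.532 and 0.555 in the MB pairs, and the stage difference had an SD of 0.993 with replicate 1 and 0.996 with replicate 2. Those stage differences share the MT libraries. The difference between the MB pairs themselves had an SD of 0.575. A stage difference of at least 2-fold was seen downward in 1750 genes (10.6%) and upward in 914 (5.55%), and with both MB pairs in 1222 (7.42%) and 556 (3.38%). As a yardstick for the spread, replicate 2 minus replicate 1 of the MB effect passed the same limits in 897 genes (5.45%) downward and 496 (3.01%) upward.

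Whether any gene passed a test depended on how the replicates were treated and on the tool. With the 4 group means alone, edgeR's quasi-likelihood test called 0 genes in either direction at an adjusted p under 0.05, and 543 (3.3%) downward and 282 (1.71%) upward at an unadjusted p under 0.05. DESeq2 on the same design called 147 downward and 19 upward. With the replicate number as a block, which is the same split as the file mark, edgeR called 1092 genes downward (6.63%) and 630 upward (3.82%), in all 1722 (10.5%). With total library size in place of TMM the blocked test gave 845 downward and 919 upward, so 52.1% in place of 36.6% of the calls were upward. The block removes what both MB libraries of a replicate share, leaves 1 residual degree of freedom (the disagreement of the MB pairs), and assumes that the lone MT libraries vary like the MB libraries. Below, "called" means called by the blocked edgeR test, and its adjusted p and log2 estimate ± SE are given. That SE was derived from the test, as the size of the estimate divided by the square root of its F statistic. It is not a spread measured between replicates of each group. None of the called genes was called by edgeR without the block. Counts of called genes in each list below stand beside shares of 6.63% downward and 3.82% upward over all tested genes.

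**Figure D1:**
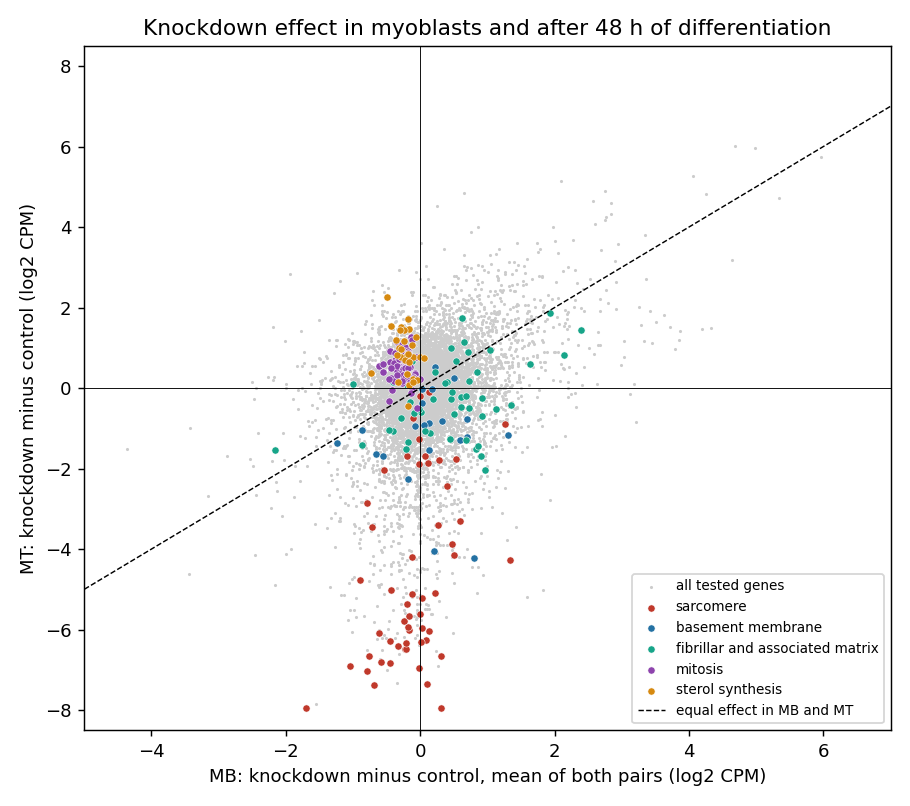
Knockdown minus control in log2 CPM for each of the 16472 tested genes, in MB (mean of both pairs, x axis) and in MT (y axis), with 5 gene lists in colour and a dashed line where both effects are equal. Sarcomere genes lie far below the line, most basement membrane genes below it, and mitosis and sterol synthesis genes mostly above it, left of 0 in MB and above 0 in MT.

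Of the 1092 genes called downward, 616 (56.4%) were at least 2-fold lower in MT without passing 2-fold in both MB pairs, and 427 passed it neither in MT nor in both MB pairs. Such counts can include genes past 2-fold in 1 of the MB pairs. In control cells 731 of the 1092 were at least 2-fold higher in MT than in MB replicate 1, and 318 of these 731 were so in knockdown cells. The median stage difference over the 1092 was -1.37 with replicate 1 and -1.40 with replicate 2. These medians describe genes picked by the same contrast. That contrast equals the knockdown change from MB to MT minus the control change. The call itself therefore favours the drop from 731 to 318. Over all 16472 tested genes, 2841 were at least 2-fold higher in MT than in MB replicate 1 in control cells and 1939 in knockdown cells. Of the 630 called upward, 192 were at least 2-fold higher in MT without passing 2-fold in both MB pairs, and 423 passed it neither in MT nor in both MB pairs. In control cells 296 of the 630 were at least 2-fold lower in MT than in MB replicate 1, and 38 of these 296 were so in knockdown cells. The call likewise favours the drop from 296 to 38. Over all 16472 tested genes, 1434 were at least 2-fold lower in MT than in MB replicate 1 in control cells and 890 in knockdown cells. All 1092 and all 630 had the same sign of stage difference with either MB pair. The call favours that too, since the blocked test uses both MB pairs and both stage differences share the MT libraries.

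Muscle structure genes carried the most negative stage differences. Of 54 sarcomere genes tested, 45 were called downward and 0 upward, with a median stage difference of -5.65 with replicate 1 and -4.83 with replicate 2, against medians of 0.016 and 0.011 over all tested genes. The summed level of the list was 3686 and 3804 CPM in the MB controls, 3773 and 3919 in the MB knockdowns, 25522 in the MT control and 4236 in the MT knockdown. The MB sums were close to each other and the MT control stood apart from all others. A sum follows its highest members, so it does not show that each gene was alike in the MB replicates. Acta1, described below, was not. In control cells 51 of the 54 were at least 2-fold higher in MT than in MB replicate 1, and in knockdown cells 38, with median changes of 8.25 and 2.28 on the log2 scale.

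Acta1 stood at 5.97 and 30.6 CPM in the MB controls and 6.19 and 23.2 in the MB knockdowns, and at 2038 in the MT control and 31.6 in the MT knockdown. The MT knockdown lay near the level of the replicate 2 MB libraries. Its stage differences were -6.06 and -5.61 with replicates 1 and 2 (-5.81 ± 0.23, adjusted p = 6.97e-07). Ttn, the giant spring titin, gave -5.64 and -5.31 (-5.45 ± 0.21, adjusted p = 6.97e-07), from 1633 CPM in the MT control and 24 in the MT knockdown. Myh3, the embryonic myosin heavy chain, had an MT effect of -7.37 and stage differences of -7.45 and -5.94, but the MB pairs gave 0.074 and -1.44 and it was not called (adjusted p = 0.105). Among called genes averaging 5 CPM or more, with 10 or more counts in each of the 4 libraries, Myh1, a fast adult myosin heavy chain, had the most negative stage difference, at -7.67 (-6.26 with replicate 2).

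Ablim3, an actin-binding LIM protein, stood apart from most muscle genes in that the MB libraries of both replicates were alike. It lay at 0.242 and 0.429 CPM in the MB controls and 0.296 and 0.534 in the MB knockdowns, and at 64.3 in the MT control and 0.491 in the MT knockdown. Only the MT control was high. The stage differences were -7.15 and -7.19 (-7.33 ± 0.43, adjusted p = 4.44e-06), and the unadjusted edgeR p without the block was 0.000559.

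The other muscle lists went the same way to a smaller extent. Excitation-contraction coupling genes were called downward in 21 of 28, with a median of -3.19. Ryr1, the calcium release channel, gave -5.14 and -4.93, and Srl, the sarcoplasmic reticulum protein sarcalumenin, -5.62 and -5.55. Genes of muscle energy metabolism were called downward in 17 of 26, with a median of -1.87, among them Ckm, muscle creatine kinase (-5.58 and -5.64), and Pygm, muscle glycogen phosphorylase (-5.27 and -5.80). Fusion genes were called downward in 15 of 31 and neuromuscular synapse genes in 6 of 13, and no gene of these 4 lists was called upward. Mymk, the fusogen myomaker, stood at 0.484 and 9.28 CPM in the MB controls and 0.465 and 5.68 in the MB knockdowns, and at 627 in the MT control and 8.49 in the MT knockdown (stage differences -6.14 and -5.49, adjusted p = 6.97e-07). Chrng, the fetal acetylcholine receptor subunit, gave -4.05 and -4.51.

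Myogenic regulators split. Of 29 tested, 10 were called downward and 2 upward, with medians of -0.27 and -0.67. Myog had knockdown effects of -0.88 and -1.24 in MB and -4.85 in MT and was called (stage differences -3.98 and -3.62, adjusted p = 2.76e-06). Mef2c, a partner of the myogenic factors, lay at 0.121 and 1.51 CPM in the MB controls and 0.232 and 1.81 in the MB knockdowns, and at 22.3 in the MT control and 0.284 in the MT knockdown, so the MT control was high and the MT knockdown lay within the range of the MB libraries. Myod1 had knockdown effects of -1.78 and -0.62 in MB and -3.22 in MT and was not called (adjusted p = 0.266). For Myf5, a myogenic factor of proliferating myoblasts, the MB pairs had opposite signs (-0.77 and 0.40) and the MT effect was 1.10 (adjusted p = 0.49). Of 38 cofactors of MyoD, 0 were called downward and 1 upward, and no stage difference reached 2-fold with replicate 1. The one was Sirt1, a deacetylase, which stood at 30.8 and 39.4 CPM in the MB controls and 22 and 28 in the MB knockdowns, and at 17.9 in the MT control and 19.9 in the MT knockdown (adjusted p = 0.0448).

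**Figure D2:**
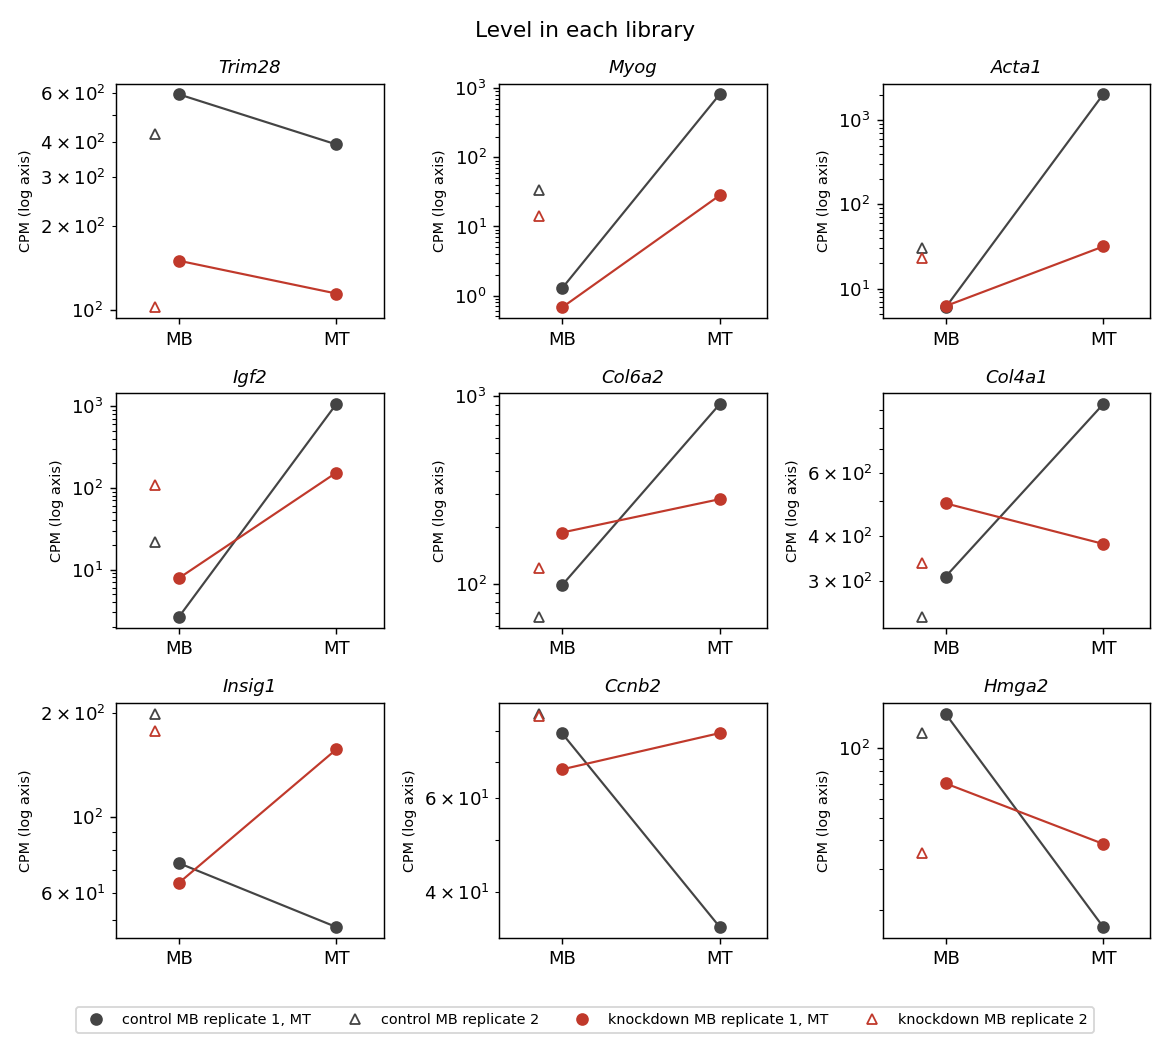
CPM (log axis) of 9 genes in every library: filled circles joined by lines are MB replicate 1 and MT, open triangles MB replicate 2, grey control and red knockdown. Trim28 keeps its distance at both stages, Myog and Acta1 separate in MT, the lines of Igf2, Col6a2 and Col4a1 cross from knockdown above to knockdown below, and those of Insig1, Ccnb2 and Hmga2 cross the other way.

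Some genes of the basement membrane and of collagen VI had knockdown effects of opposite sign in MB and MT. The collagen VI genes Col6a1 and Col6a2, described below, did so. Col6a3 did not: its knockdown stood at 0.685 and 1.14 of the control level in the MB pairs and 0.396 in MT. Over all genes, 95 (0.577%) were at least 1.5-fold higher in the knockdown in both MB pairs and at least 1.5-fold lower in MT, and 62 of the 95 were called, which the rule itself favours. The reverse held for 45 genes (0.273%), of which 13 were called. The sheet-forming basement membrane list had 13 of 23 genes called downward and 0 upward, with a median stage difference of -1.01 with replicate 1 and -0.96 with replicate 2. Its median knockdown effect was 0.24 and 0.087 in the MB pairs and -0.93 in MT. In 9 of the 23 the effect was positive in both MB pairs and negative in MT, and 3 met the 1.5-fold rule.

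Col4a1, a chain of basement membrane collagen, stood at 308 and 237 CPM in the MB controls and 493 and 336 in the MB knockdowns, and at 933 in the MT control and 380.2 in the MT knockdown. The knockdown was above its own control in both MB pairs and below it in MT. Stage differences of Col4a1 were -1.97 and -1.79 (-1.88 ± 0.18, adjusted p = 0.000115), and those of its partner Col4a2, which shares a promoter region with it, -1.91 and -1.87 (adjusted p = 8.09e-05). Npnt, the integrin ligand nephronectin, differed in kind: it was at 67.3 and 24.8 CPM in the MB controls and 89 and 24.9 in the MB knockdowns, and at 324 in the MT control and 19.4 in the MT knockdown, with MB effects of 0.40 and 0.0051. Its stage differences were -4.46 and -4.06 (adjusted p = 2.94e-06). Dag1, dystroglycan, which ties the membrane to laminin, gave -2.02 and -2.15 with MB effects of -0.25 and -0.12 (adjusted p = 5.05e-05).

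Of 51 genes of the fibrillar and associated matrix, 14 were called downward and 1 upward, with medians of -0.77 and -0.48. Col6a2, a collagen VI chain, stood at 98.8 and 66.7 CPM in the MB controls and 188 and 122 in the MB knockdowns, and at 906 in the MT control and 283 in the MT knockdown. The stage differences were -2.61 and -2.55 (-2.58 ± 0.17, adjusted p = 9.31e-06), and those of Col6a1 -1.98 and -1.96 (adjusted p = 7.47e-05). Col1a1, a fibrillar collagen chain, had knockdown effects of 0.73 and 0.72 in MB and -0.49 in MT and stage differences of -1.22 and -1.21 (adjusted p = 0.00279). Postn, periostin, was 1.58 and 1.14 in MB and -0.42 in MT, so the knockdown effect in MB was the larger one. The summed level of the list was 26906 and 29046 CPM in the MB controls, 36513 and 35094 in the MB knockdowns, 67370.3 in the MT control and 53484 in the MT knockdown. Control and knockdown swapped order between the stages.

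Of 32 matrix proteases and inhibitors, 12 were called downward and 3 upward, and Adamts2, which trims procollagen, had effects of 1.0 and 0.64 in MB and -0.68 in MT.

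Of 19 genes of the insulin-like growth factor (IGF) axis, 1, Igf2, met the 1.5-fold rule for opposite effects. Igf2, an insulin-like growth factor that myoblasts make on differentiation, stood at 2.61 and 21.6 CPM in the MB controls and 7.81 and 107 in the MB knockdowns, and at 1056 in the MT control and 153 in the MT knockdown. The knockdown was 2.96-fold and 4.97-fold above control in the MB pairs, and the MT control was 6.9-fold above the MT knockdown. The stage differences were -4.35 and -5.10 (-4.83 ± 0.30, adjusted p = 0.00029). H19, the imprinted RNA gene beside Igf2, had effects of 0.10 and 0.63 in MB and -1.89 in MT (stage differences -1.99 and -2.52, adjusted p = 0.000687). Of the 19 genes, 8 were called downward and 0 upward, with medians of -0.99 and -1.13, among them the receptor gene Igf2r (-1.37 and -1.21) and the binding protein gene Igfbp4 (-1.54 and -1.60).

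The cytokines Lif and Il6 had the same crossing. Lif stood at 3.92 and 1.72 CPM in the MB controls and 6.97 and 2.64 in the MB knockdowns, and at 21 in the MT control and 6.74 in the MT knockdown (stage differences -2.46 and -2.25, adjusted p = 0.000671). Il6 stood at 2.49 and 0.151 CPM in the MB controls and 5.74 and 0.371 in the MB knockdowns, and at 4.46 in the MT control and 0.775 in the MT knockdown (stage differences -3.65 and -3.53, adjusted p = 0.000684). Both had the knockdown above its own control in each MB pair and below it in MT. For Il6 the MB pair of replicate 2 rests on few counts, 6 in the control and 16 in the knockdown. Of 27 chemokine and cytokine genes, 9 were called downward and 0 upward, with medians of -1.06 and -0.90. In the TGF beta and BMP axis 10 of 36 were called downward and 0 upward. Fst, follistatin, an antagonist of activin and myostatin, was at 185 CPM in the MT control and 8.7 in the MT knockdown, with stage differences of -4.10 and -3.33 (adjusted p = 5.57e-05).

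By size, the genes with the largest opposite effects (higher in MB, lower in MT) included Asb2, a muscle ubiquitin ligase subunit, Sntb1, a syntrophin of the dystrophin complex, and Bcam, a laminin-binding adhesion molecule. Asb2 stood at 0.991 and 1.11 CPM in the MB controls and 2.45 and 2.55 in the MB knockdowns, and at 43.1 in the MT control and 4.96 in the MT knockdown (stage differences -4.38 and -4.28, adjusted p = 1e-05). Sntb1 gave -4.72 and -4.29 (adjusted p = 3.7e-06), and Bcam -5.01 and -5.11 (adjusted p = 3.11e-05). Another of these genes was the predicted gene BC051019, at 0.29 and 0.303 CPM in the MB controls and 1.79 and 0.766 in the MB knockdowns, and at 12.3 in the MT control and 0.336 in the MT knockdown. Its MB levels rest on few counts.

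Interferon response genes had a stage difference that rested on the choice of MB pair. Of 61 tested, 60 were negative with the replicate 1 pair and 45 with the replicate 2 pair, with medians of -1.07 and -0.18. 33 were at least 2-fold negative with replicate 1 and 14 with both pairs, and 13 were called downward and 0 upward. The median knockdown effect was 0.72 and 0 in the MB pairs and -0.23 in MT. Ifit1, an interferon-induced RNA-binding protein, stood at 0.725 and 0.706 CPM in the MB controls and 5.79 and 0.534 in the MB knockdowns, and at 239.7 in the MT control and 152 in the MT knockdown, so that its stage differences were -3.58 and -0.28 (adjusted p = 0.518). Among the called genes, Igtp gave -1.62 and -1.39 (adjusted p = 0.00302) and Bst2, a virus-tethering membrane protein, -1.62 and -1.14 (adjusted p = 0.00255). The median change of the list from MB replicate 1 to MT was 4.62 in control and 3.31 in knockdown cells.

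**Figure D3:**
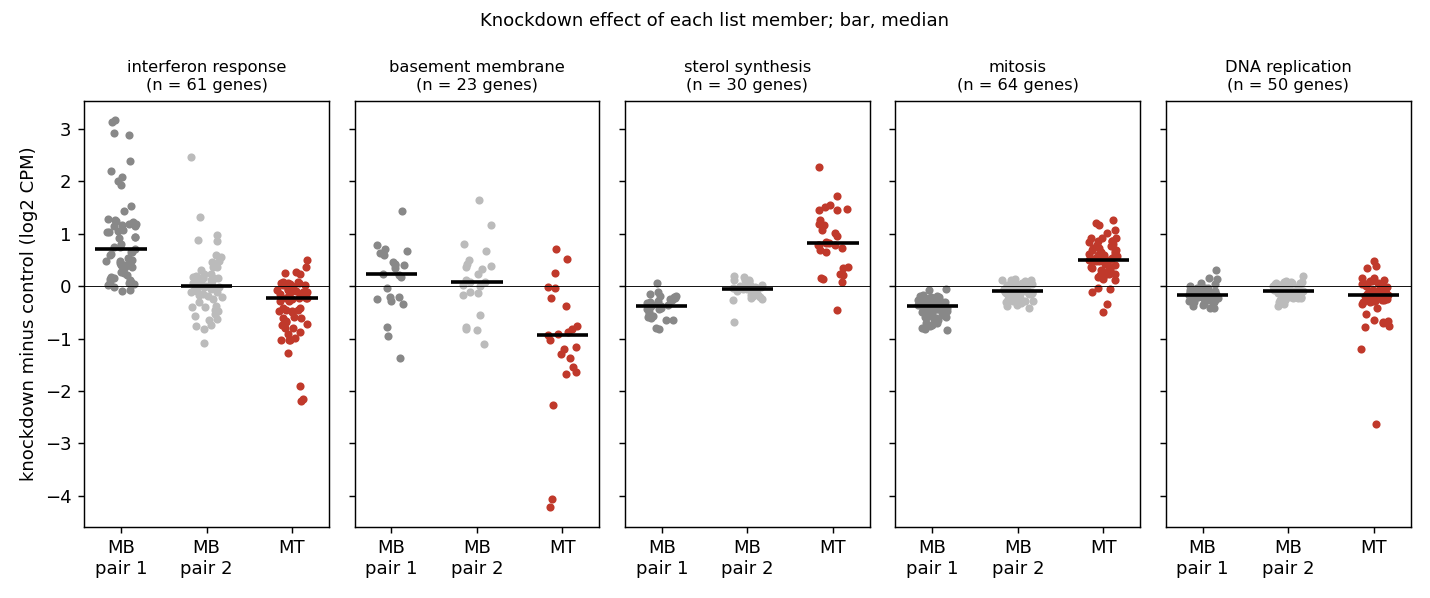
Knockdown minus control in log2 CPM for each member of 5 lists, in the MB pairs and in MT, with the median as a bar. The interferon response median is 0.72 in MB pair 1 and 0 in MB pair 2, the basement membrane median falls below 0 in MT, the sterol and mitosis medians pass from below to above 0, and the DNA replication median stays near 0.

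Sterol synthesis genes had positive stage differences. Of 30 tested, 22 were called upward and 0 downward, all 30 were positive with the replicate 1 pair and 28 with the replicate 2 pair, and the medians were 1.19 and 0.98. The knockdown effect was negative in 29 of 30 in the first MB pair and 20 in the second, and positive in 29 in MT. The summed level was 4990.4 and 3788 CPM in control and knockdown of MB replicate 1, 9197 and 9229.8 in those of replicate 2, and 3850.3 and 5908 in MT. Replicate 2 was far above replicate 1 in both arms, and without the block edgeR gave 0 of 30 even at an unadjusted p under 0.05, as did DESeq2 at an adjusted one.

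Insig1, which holds the sterol sensor in the endoplasmic reticulum, stood at 73.2 and 199 CPM in the MB controls and 64 and 178 in the MB knockdowns, and at 47.6 in the MT control and 157 in the MT knockdown. Within each MB pair the arms were close, and in MT the knockdown was 3.29-fold above the control. Stage differences of Insig1 were 1.91 and 1.88 (1.90 ± 0.16, adjusted p = 6.39e-05). The enzyme genes Idi1, Msmo1 and Nsdhl, whose products make isoprenoid units and strip methyl groups from the sterol ring, followed. Idi1 gave 2.16 and 1.81 (adjusted p = 0.000171). Msmo1 gave 1.88 and 1.74 (adjusted p = 9.61e-05). Nsdhl gave 1.77 and 1.53 (adjusted p = 0.000266). From MB replicate 1 to MT, 10 of the 30 genes were at least 2-fold lower in control cells and 0 in knockdown cells, while 0 and 5 were at least 2-fold higher.

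Mitosis genes had positive stage differences, while DNA replication genes, which also belong to cycling cells, had medians near 0. Of 64 mitosis genes, 41 were called upward and 0 downward, with medians of 0.91 and 0.67. Of 50 DNA replication genes, 1 was called upward and 4 downward, with medians of 0.028 and -0.072. Without the block, 32 of the 64 mitosis genes were higher at an unadjusted p under 0.05, against 1.71% of all genes. Of the 50 replication genes 0 were higher and 2 lower in that way. From MB replicate 1 to MT, 58 of the 64 mitosis genes were at least 2-fold lower in control cells and 3 in knockdown cells. For the replication genes these numbers were 23 and 22 of 50. In MB replicate 1, where these changes start, the knockdown effect was negative in all 64 mitosis genes, against 49 in replicate 2. Its median over the mitosis genes was -0.39 and -0.10 in the MB pairs and 0.50 in MT. The stage difference was at least 2-fold upward in 30 mitosis genes with replicate 1 and in 10 with both pairs. The difference between the lists was not tested.

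Pttg1, securin, which guards sister chromatids until anaphase, stood at 83.4 and 73.9 CPM in the MB controls and 74.2 and 68.4 in the MB knockdowns, and at 35.5 in the MT control and 85.9 in the MT knockdown. The MT control alone was low. Its stage differences were 1.44 and 1.39 (1.41 ± 0.16, adjusted p = 0.000436). Ccnb2 gave 1.42 and 1.22 (adjusted p = 0.000949) from 34.4 CPM in the MT control and 79.2 in the MT knockdown. Kif20a, a kinesin of cytokinesis, gave 1.28 and 1.22, and Ndc80, a kinetochore protein, 1.18 and 1.09. Mki67, the proliferation antigen Ki-67, had MB effects of -0.74 and -0.17 and an MT effect of 0.22 and was not called (adjusted p = 0.148).

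E2f2, Ccne1 and Ccne2 were among the replication genes called downward, whose share of the list was near that of all tested genes. E2f2, a transcription factor, stood at 9.84 and 44.6 CPM in the MB controls and 8.59 and 46.7 in the MB knockdowns, and at 39.7 in the MT control and 6.33 in the MT knockdown (stage differences -2.45 and -2.71, adjusted p = 3.28e-05). Ccne1 and Ccne2, which encode E-type cyclins, gave -1.0 and -0.89 and -0.91 and -0.63 (adjusted p = 0.00574 and 0.0239). Rfc4, a clamp loader subunit, was the one called upward (0.71 and 0.71, adjusted p = 0.0266). Among 25 genes of cell cycle exit, 6 were called downward and 2 upward. Cdkn1c, the CDK inhibitor p57, was at 94.1 CPM in the MT control and 6.27 in the MT knockdown (stage differences -4.78 and -3.81, adjusted p = 0.000698). Cdkn1a, the inhibitor p21, gave -3.00 and -2.09 and was not called (adjusted p = 0.0702), with MB effects of 0.69 and -0.22.

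**Figure D4:**
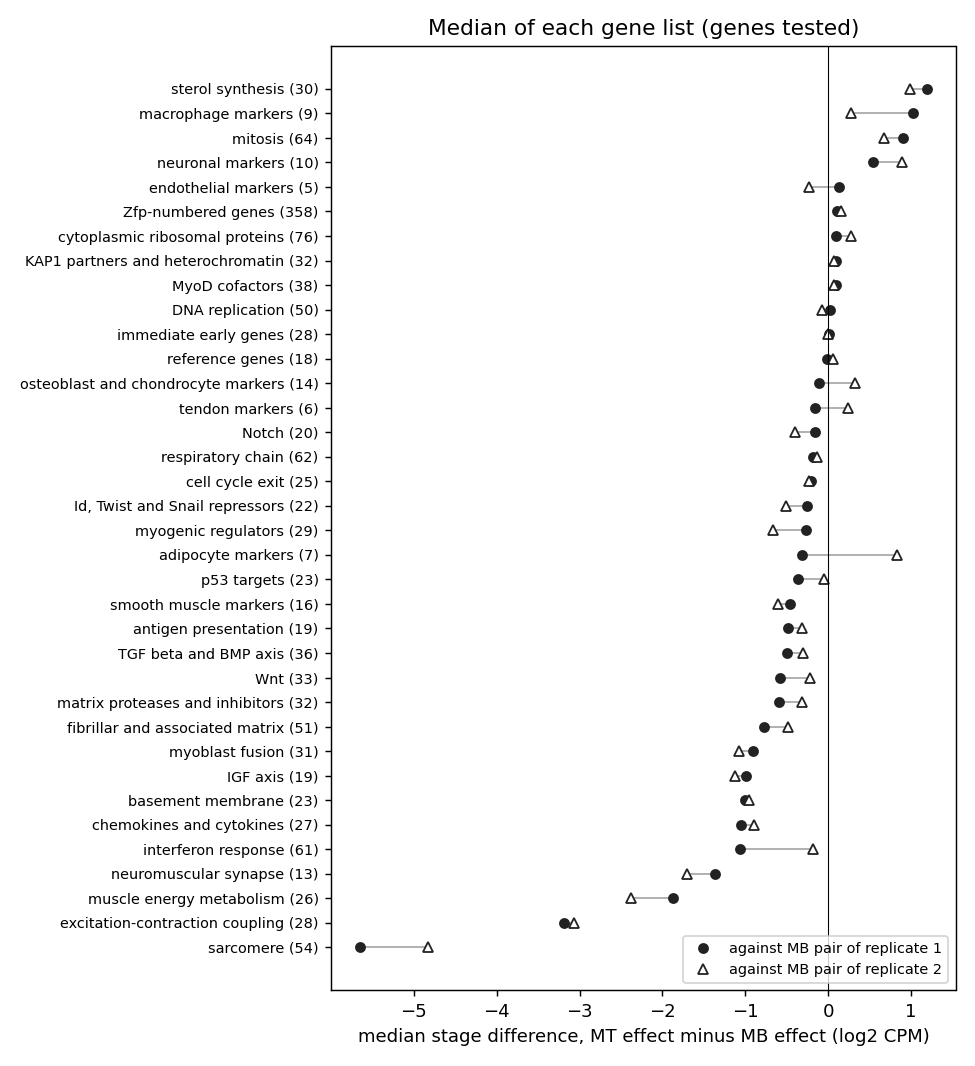
Median stage difference in log2 CPM of each gene list, with the number of genes tested in brackets, taken against MB replicate 1 (filled circles) and replicate 2 (open triangles). The sarcomere, excitation-contraction coupling and muscle energy metabolism lists lie lowest and sterol synthesis highest with either pair, and the interferon response moves from -1.07 to -0.18 with the pair.

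As given above, 45 genes were at least 1.5-fold lower in the knockdown in both MB pairs and at least 1.5-fold higher in MT. By sign alone, 2327 of 16472 genes were lower in both MB pairs and higher in MT, and 1927 the reverse. Hmga2, a chromatin protein of growing and embryonic cells, stood at 141 and 117 CPM in the MB controls and 70.4 and 35.2 in the MB knockdowns, and at 16.8 in the MT control and 38.5 in the MT knockdown. It was lower at MT than at MB in both arms, by less in the knockdown (-0.87 against -3.06 on the log2 scale). Stage differences of Hmga2 were 2.19 and 2.92 (2.56 ± 0.34, adjusted p = 0.0154). Itgb7, an integrin chain, stood at 47.3 and 21.6 CPM in the MB controls and 14.7 and 11.8 in the MB knockdowns, and at 0.599 in the MT control and 3.25 in the MT knockdown (stage differences 4.04 and 3.22, adjusted p = 0.00811). Krt13, a keratin, gave 4.39 and 3.31 (adjusted p = 0.0317) and Serpinb8, a protease inhibitor, 1.89 and 1.88 (adjusted p = 0.000215). Cxcl12, the chemokine SDF-1, met the opposite-effect rule but its MB effects were -0.67 and -3.36, and it was not called (adjusted p = 0.607).

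The following genes called upward stood higher in the MT knockdown than in the MT control. Car8, a carbonic anhydrase-related protein, stood at 65.1 and 41.1 CPM in the MB controls and 50.2 and 27.3 in the MB knockdowns, and at 3.03 in the MT control and 17.2 in the MT knockdown (stage differences 2.86 and 3.08, adjusted p = 9.82e-06). Aqp1, a water channel, gave 2.36 and 1.76 (adjusted p = 0.00639). Wnt10b, a Wnt ligand, gave 1.55 and 1.54 and Lgr4, an R-spondin receptor, 1.21 and 1.18 (adjusted p = 0.000303 and 0.00122), while the whole Wnt list had 5 of 33 genes called downward and 3 upward. Zfp36, an mRNA decay factor among the immediate early genes, was at 11.6 CPM in the MT control and 45.7 in the MT knockdown, with MB effects of 0.21 and 0.16 (stage differences 1.77 and 1.82, adjusted p = 0.000235). Of 28 immediate early genes, 4 were called downward and 5 upward.

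With a mean of at least 1 CPM, 11 genes were at least 2-fold higher and 9 at least 2-fold lower in the knockdown in both MB pairs with an MT effect under 1.2-fold. Hgf, hepatocyte growth factor, which activates muscle stem cells, stood at 76.5 and 30.8 CPM in the MB controls and 25.7 and 11.1 in the MB knockdowns, and at 17.3 in the MT control and 15.9 in the MT knockdown. The knockdown kept 0.336 and 0.36 of the control level in the MB pairs, and the MT libraries were close to each other and to the MB knockdowns. The stage differences were 1.45 and 1.35 (1.40 ± 0.17, adjusted p = 0.000755). Dock8, an activator of Cdc42, gave 1.78 and 1.51 (adjusted p = 0.0258), with 0.764 and 0.878 CPM in MT. In the other direction Abca4, a lipid transporter, stood at 0.58 and 0.732 CPM in the MB controls and 2.24 and 6.01 in the MB knockdowns, and at 5.64 in the MT control and 5.94 in the MT knockdown (stage differences -1.79 and -2.89, adjusted p = 0.00881). Iigp1, an interferon-induced GTPase, gave -2.16 and -2.69 (adjusted p = 0.00119), from 0.339 and 0.0505 CPM in the MB controls and 1.41 and 0.487 in the MB knockdowns, and 89 in the MT control and 75.8 in the MT knockdown. Its MB values rest on few counts.

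Like effects at both stages were also found: 147 genes (0.892%) were at least 2-fold higher in the knockdown in both MB pairs and in MT, and 40 (0.243%) at least 2-fold lower. Of the 147, 9 (6.12%) were called for the stage difference, and of the 40, 5 (12.5%), beside 10.5% of all tested genes in either direction. Ttll11, a tubulin-modifying enzyme, was close to constant, at 8.71 and 7.9 CPM in the MB controls and 2.47 and 2.04 in the MB knockdowns, and at 8.9 in the MT control and 2.3 in the MT knockdown. Its stage differences were -0.13 with replicate 1 and under 0.01 in size with replicate 2. Blnk, a signalling adaptor, had effects of -2.60 and -2.36 in MB and -1.93 in MT (adjusted p = 0.187). Il33, an alarmin cytokine, had effects of -3.69 and -3.21 in MB and -4.62 in MT (adjusted p = 0.0512). Grem1, a BMP antagonist, had effects of -2.29 and -2.78 in MB and -1.76 in MT (adjusted p = 0.078) and its change from MB replicate 1 to MT was -3.74 in control and -3.22 in knockdown cells. Tagln, a smooth muscle actin-binding protein, had effects of 1.65 and 1.16 in MB and 1.31 in MT (adjusted p = 0.84). A missed threshold does not show that these effects were equal.

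Genes that were near silent in control cells gave unsure stage differences. Kank4, a cortical scaffold protein, stood at 0.0242 and 0.0252 CPM in the MB controls and 0.95 and 19.6 in the MB knockdowns, and at 0.0826 in the MT control and 6.82 in the MT knockdown. It was above control in every knockdown library, but its stage difference was 1.91 with replicate 1 and -2.37 with replicate 2. Serpina1d, an antitrypsin of a family of near-identical copies whose reads may be shared, gave 2.19 and -0.22. Their controls lay at or close to the 3-count level, so these fold values depend on the prior count and are not bounds.

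Smooth muscle markers did not move as one. Of 16, 8 were called downward and 1 upward, with medians of -0.46 and -0.60. The one called upward was Cnn1, calponin, at 37.8 and 5.25 CPM in the MB controls and 87.2 and 11 in the MB knockdowns, and at 5.28 in the MT control and 53.4 in the MT knockdown: the knockdown was higher at both stages, and by more in MT (3.33 against 1.2 and 1.06). Ldb3 and Tpm2, also called, are sarcomeric in skeletal muscle and had stage differences of -2.92 and -2.74 and -2.25 and -1.86.

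Several lists had few calls or small medians. Of 76 cytoplasmic ribosomal protein genes, 0 were called by the blocked edgeR or DESeq2 test, and 0 had an unadjusted p under 0.05 without the block, with medians of 0.097 and 0.27. With total library size 1 was called upward. Of 62 respiratory chain genes, 3 were called downward and 0 upward, and the medians were -0.19 and -0.13. Of 32 genes of KAP1 partners and heterochromatin, 1 was called downward and 2 upward. The one downward was Dnmt3a, a DNA methyltransferase (-0.86 and -1.01). Both upward genes encode relatives of KAP1: Trim24 had effects of 0.65 and 0.83 in MB and 1.71 in MT (adjusted p = 0.0051) and Trim66 of -0.88 and -0.60 in MB and 1.80 in MT (adjusted p = 0.00817). Of 358 genes with a Zfp number, many of which encode zinc finger proteins, 7 were called downward and 9 upward, shares below those of all genes (6.63% and 3.82%). Among 18 reference genes, Gapdh (-0.65 and -0.66, adjusted p = 0.0439) and Tfrc (-0.94 and -1.17, adjusted p = 0.00406) were called downward.

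The remaining lists had 5 of 20 (Notch), 4 of 22 (Id, Twist and Snail repressors), 3 of 23 (p53 targets) and 3 of 19 genes (antigen presentation) called downward. In the same order 0, 2, 1 and 0 were called upward. Over all tested genes the shares were 6.63% downward and 3.82% upward.

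Markers of other cell types were detected to different extents. Of 12 macrophage markers, 2 had no count in any library and 7 stayed under 1 CPM everywhere, with a summed level over tested genes of 10.9 CPM in the MT control and 19 in the MT knockdown, against 14 to 17 in MB. Of 12 endothelial markers 8, of 14 adipocyte markers 7 and of 21 bone and cartilage markers 12 stayed under 1 CPM everywhere, as did 9 of 15 neuronal, 2 of 8 tendon and 1 of 16 smooth muscle markers. The tendon markers tested summed to 269 to 304 CPM in MB, 299 in the MT control and 455 in the MT knockdown. Most of that sum was Egr1, at 227 CPM in the MT control and 391 in the MT knockdown. Scx went the other way, with 53.7 CPM in the MT control and 32.1 in the MT knockdown. The MT effect was positive in 4 of the 6 tested and negative in 2. The neuronal markers tested summed to 614 to 887 CPM in MB, 1419 in the MT control and 725 in the MT knockdown. Most of the sum in MT was Nes, at 1324 CPM in the control and 471 in the knockdown. Nes had negative stage differences, -0.75 and -1.36. With either MB pair, 3 of the 10 tested had a negative stage difference and 7 a positive one. Spp1, osteopontin, which myoblasts also make, was 2346 and 2801 CPM in the MB controls and 1071 and 1527 in the MB knockdowns, and 747 in the MT control and 807 in the MT knockdown (stage differences 1.24 and 0.99, adjusted p = 0.00489). Of those tested, 1 of 7 adipocyte, 0 of 14 bone and cartilage, 1 of 6 tendon, 1 of 5 endothelial and 0 of 9 macrophage markers were called downward, and 1, 3, 2, 0 and 1 upward. Of 10 neuronal markers tested 3 were called upward, Tubb3 (1.71 and 1.85), Stmn2 (2.06 and 2.71) and Map2 (0.85 and 1.06), which encode tubulin and tubulin-binding proteins. Tnmd, a tendon marker with 8 counts or fewer in 3 of the 4 libraries, had the largest positive stage difference of all tested genes with replicate 1, 5.26 (3.11 with replicate 2), from 0.165 CPM in the MT control and 5.99 in the MT knockdown. The part of other cell types in these results was not tested.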

How the data were processed

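The authors deposited 1 table of raw counts per gene for each library. Per the submitters' processing notes, TopHat2 2.0.11, HTSeq and the build mm9 were used. The labels give neither annotation release, strand setting nor counting mode, so reads of overlapping, antisense and near-identical genes cannot be told apart. Rows without a gene (no feature 5.18% to 8.07%, ambiguous 2.81% to 2.93% per library) were left out. Symbols were found for 32919 of 37991 IDs and 15619 of 16472 tested genes.

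CPM used TMM-scaled library sizes, and log2 values a prior count of 2. Genes passing filterByExpr were tested in all 6 libraries by edgeR 4.0.16 (quasi-likelihood, robust, Benjamini-Hochberg adjustment over all tested genes, R 4.3.3) without and with the replicate number as a block, and by DESeq2 1.42.0. Both edgeR fits were run on simulated data drawn from the blocked fit with the same spread in every library. That setting cannot check the spread of the MT libraries. MB replicate 1 and both MT files carry the mark "old" and form 1 block. Control and knockdown shared the deviation of replicate 2 from replicate 1 (Pearson's r 0.762 and Spearman's rho 0.681 across 16472 genes, which are not independent). Each fit leaves 1 MT library per arm without a replicate check, and single-library values carry counting error only.

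The genes and the 35 lists were chosen with earlier results of these data known. Genes are named by size of stage difference (12 each way, mean of at least 5 CPM, at least 10 counts in each of the 4 libraries, called with the block), by opposite, MB-only and like effects (8, 5 and 6 each way), by the 4 smallest p-values in each list, and from a fixed set, not all of which are printed. Cdh15, Des, Cxcl5 in the replicate check, the sterol element, cell cycle and NF-Y motifs, and the list calls under other fits were added after the data were seen. Alternatives were the other MB pair, scaling, prior count, filter, tool, block and each MB library left out.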

Additional observations from a re-analysis of the deposited data

Results flagged for a closer look

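The knockdown effect differed between the stages in 1092 genes downward and 630 upward by edgeR's interaction test with the replicate block, out of 16472. The same test without the block called 0. The median stage difference was -1.37 over the 1092 genes and 0.936 over the 630 with the replicate 1 pair, which the calls themselves select. DESeq2 with the block called 692 and 266, of which 652 and 250 were among the 1092 and the 630. DESeq2 without the block called 147 and 19, of which 143 and 18 were among them.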

How the results depend on the processing

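With the replicate block edgeR called 1092 genes downward and 630 upward, where the test without it called 0 and 0. Under the block, total library size gave 845 and 919, of which 845 and 626 were called under TMM, a filter of 1 count in any library gave 1454 and 791, the robust option off 1138 and 642, and DESeq2 692 and 266. DESeq2 without the block gave 147 and 19. Leaving out each MB library in turn without the block gave 0 to 0 calls in either direction, as did edgeR without the block under total library size, DESeq2 size factors, the looser filter and robust off. The filter of 1 count in any library kept 24706 genes in place of 16472. Of these, 2775 lay at least 2-fold downward and 1817 upward in the stage difference. Total library size moved the median stage difference of all genes by 0.092. Among 200 named genes, the sign changed with the replicate 2 pair for Kank4 (-2.37), Serpina1d (-0.219), Id3 (-0.061) and Tagln (0.15) and with the block for Kank4 (-2.15) and Cdhr2 (1.31). The controls held 7 counts or fewer for Kank4, Serpina1d and Cdhr2; those of Id3 and Tagln were not low in counts. Calls by list under the block with total library size were 43 downward for the sarcomere (45 under TMM), 22 upward for sterol synthesis (22), 44 upward for mitosis (41) and 11 downward for the basement membrane (13), and by DESeq2 without the block were 6, 0, 4 and 7.

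The limits are those of the design. Each MT arm is 1 library, so spread between differentiated cultures was not measured, and the tests assume it equals that of MB. Both stage differences share the MT libraries, so their likeness says nothing of the MT arms. Both MT files carry the mark "old", so MT was not measured without it. At 36247530 counts or more per library, genes near 3 counts in an arm give fold values that depend on the prior count.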
